A study of Mus musculus with 12 samples.

Results

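The comparison described here sets Notch1-/- mouse embryonic stem cells against WT (wild-type) cells before differentiation, at day 0. Its members were the 3 Notch1-/- and the 3 WT day 0 libraries, taken by their column names in the deposited count table, which are 6 of the 12 libraries of the series. All 40039 merged loci of the table entered, and 23991 of them had enough counts to be tested. The remaining 6 libraries are embryoid bodies of both genotypes on day 6 of cardiac differentiation. They served to estimate the spread between libraries and to set the day 0 differences beside those of separate libraries.

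Per the labels, both genotypes were of strain C57BL/6J. The cells were kept in stem cell medium with LIF at 1000 U per ml, either on feeders of mouse embryonic fibroblasts or on gelatin, and the labels do not say which surface a given library came from. LIF, a cytokine that keeps mouse stem cells undifferentiated, and possibly feeders were thus shared by both genotypes. For day 6, drops of 1000 cells were hung to form embryoid bodies. The labels give no details of the Notch1 deletion, of how many clones carry it, or of whether the WT line is its parent. Each condition had 3 biological replicates according to the design text. Whether they were grown as separate cultures is not said, so a p-value here reflects just the spread among the libraries at hand, which may be technical.

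Notch1 encodes a receptor at the cell surface. When a ligand of the Delta or Jagged family on a neighbouring cell binds it, proteases release the intracellular part of the receptor, which enters the nucleus and, with the DNA-binding protein RBPJ, switches on genes of the Hes and Hey families. In undifferentiated mouse embryonic stem cells this pathway is known to be dispensable for self-renewal, and it is known for its part in choices of cell fate during differentiation.

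The day 0 libraries held 100637179, 125316807 and 102617027 counts in Notch1-/- cells and 119702974, 121163425 and 112892606 counts in WT cells. Levels are given as CPM, counts scaled to a common library size with TMM factors, for libraries 1, 2 and 3 of each genotype in that order. A fold change is the log2 ratio of Notch1-/- over WT with its standard error (SE), and a locus was called when the adjusted p of edgeR's quasi-likelihood test (Benjamini-Hochberg over all tested loci) was under 0.05. CPM is not scaled to gene length, so levels are compared between libraries and not between genes. Gene names were inferred from exon and intron lengths and not from identifiers. In RNA of whole cultures, fewer cells of a type and less RNA per cell cannot be told apart.

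The targeted gene was low in every library labelled Notch1-/-. Notch1 had 3.80, 3.87 and 4.59 CPM in Notch1-/- cells, against 61.6, 24.7 and 34.0 CPM in WT cells. The groups lay far apart, and the WT libraries differed among themselves by more than the Notch1-/- libraries did. The log2 fold change was -3.29 (SE 0.30, adjusted p = 3.89e-05, edgeR), a 9.81-fold difference, and at day 6 it was -2.58. In the deposited FPKM table, which is scaled to transcript length, Notch1 stood at 0.252, 0.359 and 0.523 FPKM in Notch1-/- cells and at 8.41, 2.82 and 4.30 FPKM in WT cells. The Notch1 locus lies on the minus strand of mm9 at chr2:26301026-26363148, and 22.3% of its exon length is shared with another locus. Which exons the deletion removes is not given in the sources used here, so transcripts made of the remaining exons were not separated.

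Of the 32 tested genes for Notch receptors, ligands and machinery, 4 were lower in Notch1-/- cells, Notch1 included, and none was higher. Across all tested loci, 9.56% were called, 3.71% higher and 5.86% lower. The median log2 fold change of the list was -0.11, beside -0.08 for all tested loci. Jag1, a Jagged ligand, had 10.4, 13.8 and 10.04 CPM in Notch1-/- cells and 19.03, 20.6 and 18.6 CPM in WT cells. The groups of Jag1 did not overlap, and it fell by 0.77 on the log2 scale (SE 0.17, adjusted p = 0.0143, edgeR). Dll1, a Delta ligand, had 2.99, 2.43 and 4.87 CPM in Notch1-/- cells, against 19.02, 2.70 and 26.6 CPM in WT cells. WT library 2 lay among the Notch1-/- libraries, so the groups overlapped although Dll1 was called (log2 fold change -2.23, SE 0.58, adjusted p = 0.0306, edgeR). At day 6 Dll1 was called the other way, 2.97 on the log2 scale. Single libraries decided these calls: the adjusted p reached 0.0521 for Jag1 without Notch1-/- library 3 and 0.127 for Dll1 without Notch1-/- library 2, and Dll1 was also lost without WT library 1, WT library 3 or Notch1-/- library 1. The replicate number was also used as a block, which sets each Notch1-/- library beside the WT library of the same number. The labels state no such pairing. With this block, 9 of the 32 were lower and none was higher. Over all tested loci it called 17.7%, 7.56% higher and 10.1% lower. The block added Notch3, Jag2 and Dll4, the coactivator gene Maml3 and Neurl1a, of a family of ubiquitin ligases that act on ligands. Neurl1a had 41.9, 18.4 and 17.0 CPM in Notch1-/- cells and 67.5, 44.2 and 37.5 CPM in WT cells, lower in each pair although the groups overlapped. Its log2 fold change with the block was -1.03 (SE 0.15, adjusted p = 0.00303, edgeR), and its adjusted p without it was 0.0742.

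Without the block, Notch2, Notch3 and Rbpj did not pass the test. Notch2 had 76.6, 123 and 130 CPM in Notch1-/- cells and 97.5, 96.6 and 101 CPM in WT cells (log2 fold change 0.16, SE 0.17). Notch3 had 180, 73.4 and 92.7 CPM in Notch1-/- cells and 204, 124 and 126 CPM in WT cells (-0.39, SE 0.29). It was lower in each same-numbered pair, and with the block it was called (-0.46, SE 0.12, adjusted p = 0.0341, edgeR). Rbpj had 89.1, 110.0 and 99.5 CPM in Notch1-/- cells and 55.2, 119 and 77.5 CPM in WT cells. The ranges of each of these genes overlapped between the genotypes. None of the 14 tested Notch target genes was called, with a median log2 fold change of -0.05, and with the block 1 was lower, Hes7, at no more than 0.238 CPM in Notch1-/- cells and 0.768 CPM in WT cells. Hes1, the classical target, shares 99.7% of its exon length with another locus and was too low in the count table to be tested. By the authors' FPKM it stood at 9.89, 19.4 and 13.5 in Notch1-/- cells and at 22.7, 13.2 and 22.4 in WT cells, ranges that overlap.

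Across all loci, 889 were higher and 1405 were lower in Notch1-/- cells, 2294 in all. The change was at least 2-fold for 694 of the higher and 1190 of the lower loci, and the 3 values of one genotype lay wholly above those of the other at 837 of the higher and 1306 of the lower loci. Over all tested loci the groups did not overlap at 20.6%. By the FPKM table, 1122 of 1149 called loci with at least 1 FPKM in some day 0 library (97.7%) had the same sign, beside 84.8% of all tested loci at that level. Of the 87 calls among the genes named, 24 were lost on the log2(FPKM + 1) scale and 17 on the log2(FPKM + 0.1) scale (limma). Dll1, Atrx, Sgce and Cd36 were among those lost on both scales. Tbx20, Mmp12, Pkhd1l1 and Tex13b were lost on the log2(FPKM + 1) scale only. Of the called loci, 453 higher and 693 lower ones carried the name of 1 gene. Libraries moved these counts by more than 1.5 times: 1233 loci were called without WT library 1, 5735 without WT library 2, 1490 without WT library 3, 3911 without Notch1-/- library 1, 1087 without Notch1-/- library 2 and 1525 without Notch1-/- library 3. With the replicate number as a block, 1813 loci were higher and 2428 lower. When only the 6 day 0 libraries were fitted, 373 were higher and 370 lower. That fit ended 35 of the 87 calls among the genes named, with adjusted p between 0.0537 and 0.229 (edgeR): Jag1, Dll1, Prps1, Atrx, Impact, Sgce, Hnf4a, Wnt3, Nkd1, Axin2, Spry1, Cdkn1b, Cdk6, Epcam, Dppa4, Lama1, Elf5, Eomes, Id2, Ptprc, Mael, Taf7l, Stk31, Ddx4, Dazl, Slc25a31, Tex19.1, Dmrt1, Zscan4c, Zscan4d, Lockd, Csf2rb2, Ncf4, Spi1 and Laptm5.

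The greatest increases among named genes are given first for genes of skin, cytoskeleton and other roles. Hrnr, a protein of the cornified skin surface, had 3.402, 1.84 and 4.48 CPM in Notch1-/- cells, against 0.0220, 0.0341 and 0.0169 CPM in WT cells. Its log2 fold change was 7.003 (SE 0.47, adjusted p = 4.38e-06, edgeR), and its neighbour Rptn, another protein of the skin surface, had 0.744, 0.448 and 1.22 CPM in Notch1-/- cells and no more than 0.0169 CPM in WT cells. Klhdc4, a kelch-domain protein, had 1151, 958 and 1127 CPM in Notch1-/- cells and 22.7, 27.1 and 50.7 CPM in WT cells. The WT libraries differed by less than 3-fold among themselves (log2 fold change 5.01, SE 0.27, adjusted p = 7.20e-07, edgeR). On the log2(FPKM + 1) scale the difference of Klhdc4 was smaller, at 1.17 (adjusted p = 0.00124, limma). Of its exon length, 34.1% is shared with another locus, and the cause of the gap between the 2 measures was not tested. Filip1, a protein that interacts with filamin, had 21.6, 20.3 and 16.7 CPM in Notch1-/- cells and 0.717, 0.298 and 0.380 CPM in WT cells. Every Notch1-/- value of these genes lay above every WT value.

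Zp3r, Crisp1, Ankrd31 and Tex13b were also among the greatest increases and are placed together here after their values were seen. Zp3r, a protein of the sperm acrosome, had 4.18, 2.93 and 4.08 CPM in Notch1-/- cells and 0.132, 0.0426 and 0.118 CPM in WT cells (log2 fold change 5.23, SE 0.43). Crisp1, a secreted protein of the epididymis, had 11.2, 12.4 and 15.2 CPM in Notch1-/- cells and 0.190, 0.580 and 0.498 CPM in WT cells (4.94, SE 0.38). Ankrd31, which acts in meiotic recombination, had 115, 106 and 56.8 CPM in Notch1-/- cells and 5.79, 5.62 and 3.93 CPM in WT cells (4.18, SE 0.29). All 3 genes were separated between the genotypes by several-fold. Tex13b, a testis-expressed gene, was also higher in every Notch1-/- library (6.31, SE 0.96), but library 2 with 82.1 CPM stood far above libraries 1 and 3 with 7.03 and 6.81 CPM. Pudp, a phosphatase of pseudouridine monophosphate (6.34, SE 0.64), Pkhd1l1, a large membrane protein (5.76, SE 0.49), and Aox4, an aldehyde oxidase (3.29, SE 0.28), completed the set with non-overlapping groups. Each gene of this paragraph passed the test with an adjusted p of at most 0.00157 (edgeR).

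**Figure D1:**
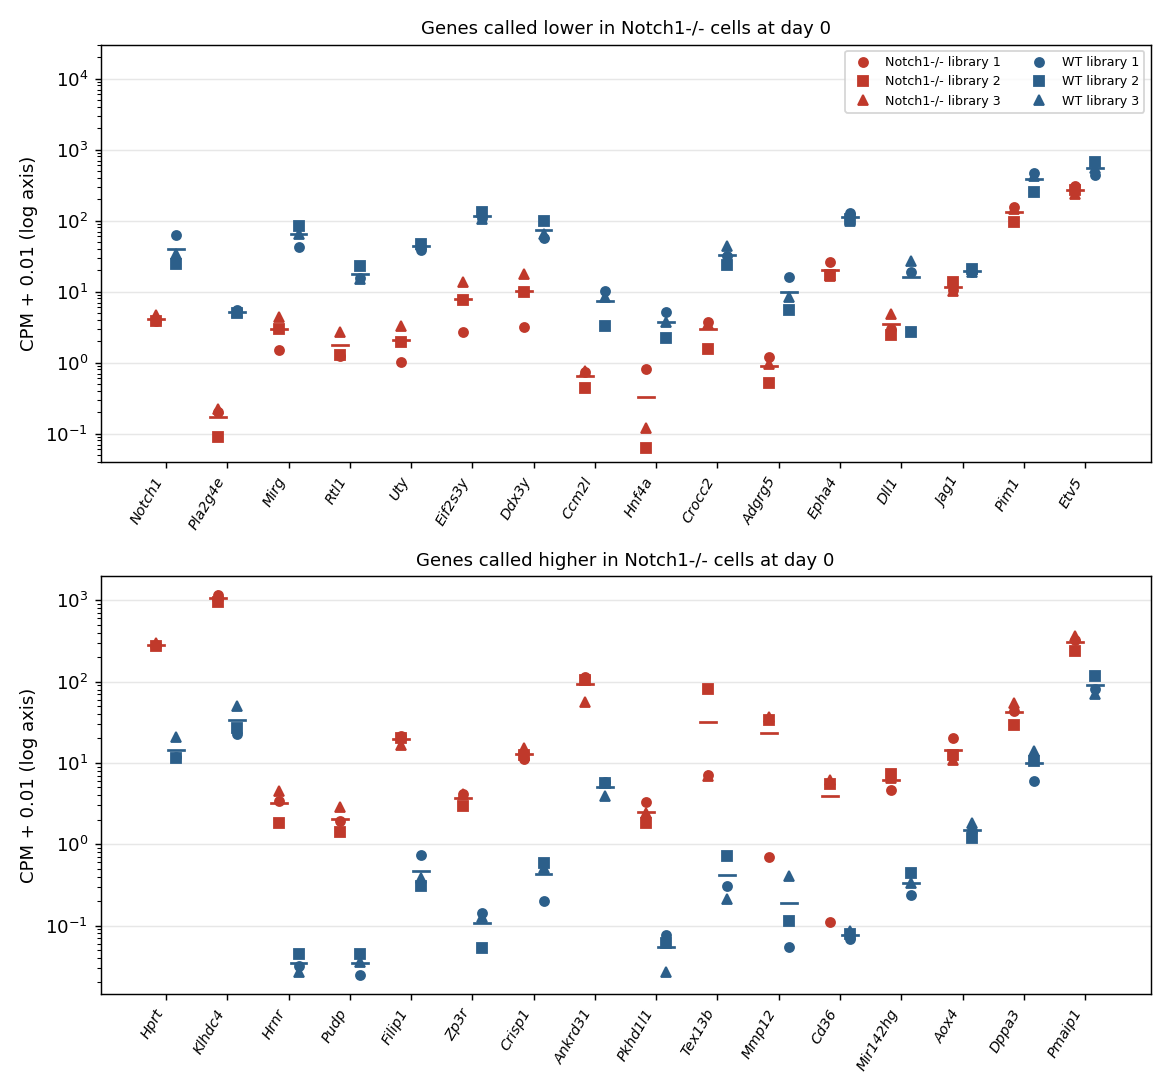
Levels of 16 genes called lower (upper panel) and 16 called higher (lower panel) at day 0, as CPM + 0.01 on a log axis, with Notch1-/- libraries in red left of WT libraries in blue. Symbols mark libraries 1, 2 and 3 and bars the group means; Dll1 and Jag1 differ by less than Notch1, and Mmp12 and Cd36 are high in Notch1-/- libraries 2 and 3 alone.

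The greatest decreases held genes of several kinds. Pla2g4e, a cytosolic phospholipase, had 0.188, 0.0791 and 0.211 CPM in Notch1-/- cells, against 5.47, 5.03 and 5.13 CPM in WT cells (log2 fold change -5.03, SE 0.40). Ccm2l, a paralogue of the endothelial adaptor Ccm2, had 0.724, 0.431 and 0.762 CPM in Notch1-/- cells and 10.3, 3.26 and 8.48 CPM in WT cells (-3.52, SE 0.49). Crocc2, related to the ciliary rootlet protein rootletin, had 3.72, 1.52 and 3.53 CPM in Notch1-/- cells and 32.2, 23.8 and 43.2 CPM in WT cells (-3.50, SE 0.39). In each of them all WT libraries exceeded all Notch1-/- libraries, and the adjusted p was at most 0.00083 (edgeR).

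Epha4, an ephrin receptor, had 26.4, 17.0 and 16.5 CPM in Notch1-/- cells and 128, 107 and 97.1 CPM in WT cells (log2 fold change -2.47, SE 0.20, adjusted p = 1.40e-05, edgeR). Adgrg5, an adhesion receptor coupled to G proteins (-3.49, SE 0.45), Rfx8, of the RFX family of DNA-binding proteins (-3.41, SE 0.53), and Sned1, an extracellular matrix protein next to Crocc2 (-2.20, SE 0.23), were lower without overlap, with adjusted p of at most 0.00186 (edgeR). Hnf4a, a regulator of visceral endoderm and liver genes, had 0.803, 0.0528 and 0.110 CPM in Notch1-/- cells and 5.14, 2.18 and 3.68 CPM in WT cells. Its log2 fold change was -3.52 (SE 0.80, adjusted p = 0.0169, edgeR), and the call was lost without WT library 1, Notch1-/- library 2 or Notch1-/- library 3, with an adjusted p of up to 0.0599.

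Genes of the Y chromosome were lower in Notch1-/- cells, with 6 of its 7 tested loci called, beside 9.56% of all tested loci. Uba1y, a ubiquitin-activating enzyme, had no count in any Notch1-/- library and 2.88, 4.12 and 3.71 CPM in WT cells. With a floor of 3 counts over the group it was at least 374-fold lower, a bound that covers counting error only. Zfy1, a zinc finger protein, had 0.0198, 0 and 0.0501 CPM in Notch1-/- cells and 5.47, 5.40 and 2.91 CPM in WT cells.

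Eif2s3y, a subunit of a translation initiation factor, had 2.69, 7.56 and 13.6 CPM in Notch1-/- cells, against 107, 134 and 106 CPM in WT cells (log2 fold change -3.86, SE 0.43, adjusted p = 0.000168, edgeR). Uty, a histone demethylase relative, had 1.00, 1.95 and 3.29 CPM in Notch1-/- cells and 38.9, 47.0 and 44.5 CPM in WT cells (-4.39, SE 0.42), and Ddx3y, an RNA helicase, was lower too (-2.85, SE 0.47, adjusted p = 0.0025, edgeR). Within the Notch1-/- libraries these 3 genes ran in the order of the summed level of 22 tested feeder fibroblast genes, which was 2895, 4064 and 5375 CPM in Notch1-/- cells and 6405, 4185 and 8475 CPM in WT cells. Within the WT libraries the order was not kept: all 3 genes were highest in library 2, where the feeder sum was lowest. The part of feeder cells in these Y-linked values was not tested. Kdm5d, also Y-linked, was not called, with 1.14, 2.56 and 4.18 CPM in Notch1-/- cells and 2.99, 2.00 and 4.77 CPM in WT cells. Y-linked genes have close copies on the X chromosome, and how reads were divided between them is not given in the sources used here.

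Of the 11 tested genes on the X-linked list, Hprt and Atrx were higher and none was lower. The shares over all tested loci, for this list and the purine list below, were 3.71% higher and 5.86% lower. Hprt, the purine salvage enzyme that serves as a selectable marker in stem cell work, had 281, 277 and 295 CPM in Notch1-/- cells and 11.7, 11.5 and 20.7 CPM in WT cells. The libraries of each genotype lay close together and the log2 fold change was 4.28 (SE 0.22, adjusted p = 4.97e-07, edgeR), growing to 7.38 at day 6. Atrx, a chromatin remodeller, had 1058, 1519 and 1236 CPM in Notch1-/- cells and 538, 941 and 580 CPM in WT cells (0.89, SE 0.19, adjusted p = 0.0136), a call lost without WT library 1, WT library 3 or Notch1-/- library 2 (adjusted p up to 0.0618, edgeR). Among 14 tested genes of purine salvage and synthesis, Hprt was higher and Prps1, which makes the ribose phosphate donor, was lower. Prps1 had 123, 128 and 117 CPM in Notch1-/- cells and 164, 172 and 180 CPM in WT cells. It fell by 0.49 on the log2 scale (SE 0.12, adjusted p = 0.0259, edgeR), up to 0.0765 without WT library 3 or Notch1-/- libraries 2 or 3, and at day 6 it was higher (1.23).

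Of 21 tested imprinted genes, 4 were lower in Notch1-/- cells and none was higher, where 5.86% of all tested loci were lower and 3.71% higher. The median log2 fold change was -0.38, beside -0.08 for all tested loci. At least 50% of the exon length was shared with another locus for 7 of the 21. Mirg, a noncoding RNA that carries many microRNAs in the imprinted Dlk1-Dio3 domain, had 1.51, 2.99 and 4.41 CPM in Notch1-/- cells and 42.3, 83.9 and 64.7 CPM in WT cells. Its log2 fold change was -4.42 (SE 0.38, adjusted p = 2.20e-05, edgeR). Rtl1, a retrotransposon-derived gene of the same domain, had 1.23, 1.25 and 2.73 CPM in Notch1-/- cells and 15.7, 23.0 and 15.1 CPM in WT cells (-3.37, SE 0.31), but 74.9% of its exon length is shared and its FPKM difference did not pass. Both belonged to the longest stretch of neighbouring tested loci called in 1 direction, 7 loci at chr12:110779058-110987667 in mm9, with log2 decreases between 3.32 and 6.33. The 5 unnamed loci there lie between or beside these genes and may share transcripts with them. Impact, an inhibitor of GCN2 signalling, fell by 0.85 and Sgce, a sarcoglycan, by 0.82 on the log2 scale, with adjusted p of 0.0126 and 0.0406 (edgeR). Impact lost its call without WT library 3 or Notch1-/- library 2 (adjusted p up to 0.0600), and Sgce also without WT library 1 (up to 0.134).

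The list of genes of the 2-cell stage and the germline had the most calls of the 26 lists by number, though not by share. Of 22 tested members, 10 were higher and 3 lower, with a median log2 fold change of 0.99. Over all tested loci 3.71% were higher and 5.86% lower, and on the Y-linked list 4 of 5 tested members were lower. Germline genes are kept silent in most somatic tissues by DNA methylation and by repressors that bind the E-box CACGTG in their promoters, and some of them are transcribed in cultured stem cells. RefSeq promoters (build GRCm38.p6, 250 bases before to 50 after the start) were found for 8 of the 10 higher members. Of 3 motifs searched on both strands, the E-box, which reads the same on both strands, occurred in 6 of these 8 (75%), in 2 of 9 other tested list members with a promoter (22.2%) and in 9.14% of the promoters of 10061 tested genes. Over all genes called higher it occurred in 7.25% and over all called lower in 9.88%. The sets differed in base content too. The median ratio of observed to expected CG pairs was 0.85 in the 8 higher members, 0.43 in the 9 others and 0.699 in all tested genes. The 9 others include the 2-cell genes Zscan4c and Zscan4d. The E2F-type motif GCGGGAA occurred in 25% of the 8 higher members, 11.1% of the other members and 7.58% of all tested genes with a promoter. TGGGAA, the core of the RBPJ motif, occurred in 12.5%, 11.1% and 23.4% of the same sets. Either motif can overlap an end of the E-box. The members were chosen with their values known and the motifs were searched without a test, so the shares describe these promoters only. The 4 promoters shown hold the E-box, in capitals, and Tex19.1 stands for the pair of higher members, with Dazl, whose windows do not hold these letters. They come from chr13:112652261-112652560, minus strand; chr1:166238695-166238994, minus strand; chr3:102936051-102936350, minus strand; chrX:134476441-134476740, minus strand; and chr11:121145893-121146192, plus strand.
Ddx4: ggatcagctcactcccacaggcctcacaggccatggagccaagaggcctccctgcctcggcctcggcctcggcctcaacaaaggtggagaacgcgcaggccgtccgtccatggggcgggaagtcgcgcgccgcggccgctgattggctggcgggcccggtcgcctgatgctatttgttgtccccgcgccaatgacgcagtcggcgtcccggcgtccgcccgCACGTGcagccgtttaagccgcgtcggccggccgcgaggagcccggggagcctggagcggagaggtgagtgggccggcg
Mael: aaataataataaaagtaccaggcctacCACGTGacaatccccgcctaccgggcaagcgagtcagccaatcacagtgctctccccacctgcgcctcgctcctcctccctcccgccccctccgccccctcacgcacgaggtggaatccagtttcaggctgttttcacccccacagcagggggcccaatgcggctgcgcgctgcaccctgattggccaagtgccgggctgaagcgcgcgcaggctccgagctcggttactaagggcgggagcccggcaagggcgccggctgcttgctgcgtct
Sycp1: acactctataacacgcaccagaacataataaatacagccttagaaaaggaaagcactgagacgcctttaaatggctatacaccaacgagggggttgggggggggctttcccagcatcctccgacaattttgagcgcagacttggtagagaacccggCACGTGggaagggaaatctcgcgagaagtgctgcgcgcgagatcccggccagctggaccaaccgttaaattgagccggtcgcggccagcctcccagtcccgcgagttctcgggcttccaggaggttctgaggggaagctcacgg
Taf7l: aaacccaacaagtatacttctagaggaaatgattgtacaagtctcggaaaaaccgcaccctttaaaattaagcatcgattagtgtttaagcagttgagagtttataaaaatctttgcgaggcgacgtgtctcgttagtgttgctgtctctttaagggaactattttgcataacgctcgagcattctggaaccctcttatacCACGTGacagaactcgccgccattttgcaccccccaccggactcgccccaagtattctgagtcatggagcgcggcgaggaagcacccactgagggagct
Tex19.1: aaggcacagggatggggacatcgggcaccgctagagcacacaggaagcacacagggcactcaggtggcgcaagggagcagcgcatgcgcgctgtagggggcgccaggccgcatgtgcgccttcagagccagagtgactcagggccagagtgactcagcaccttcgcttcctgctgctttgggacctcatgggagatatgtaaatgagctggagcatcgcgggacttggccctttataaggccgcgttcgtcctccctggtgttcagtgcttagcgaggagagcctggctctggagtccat

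Sycp1, a protein of the synaptonemal complex of meiosis, had 32.2, 78.2 and 69.6 CPM in Notch1-/- cells and 16.1, 25.1 and 16.2 CPM in WT cells (log2 fold change 1.65, SE 0.28, adjusted p = 0.00315, edgeR). Taf7l, a testis form of a general transcription factor subunit, had 15.0, 68.6 and 44.6 CPM in Notch1-/- cells and 7.10, 13.7 and 3.57 CPM in WT cells (2.40, SE 0.51). Piwil2, which acts in the piRNA pathway against transposons, had 50.2, 96.0 and 52.8 CPM in Notch1-/- cells and 20.8, 27.9 and 22.1 CPM in WT cells (1.49, SE 0.25). In these genes library 2 was the highest of both genotypes and the groups did not overlap. Mael, another piRNA factor, had 23.9, 69.2 and 46.7 CPM in Notch1-/- cells and 12.3, 22.5 and 16.7 CPM in WT cells (1.44, SE 0.33). Dppa3, a maternal factor that protects methylation marks in the early embryo, had 43.3, 29.4 and 54.8 CPM in Notch1-/- cells and 5.97, 10.4 and 13.9 CPM in WT cells (2.07, SE 0.29, adjusted p = 0.000976, edgeR). Taf7l and Mael lost their calls without WT library 1 or Notch1-/- library 2, Mael also without WT library 3 (adjusted p up to 0.0572 and 0.0845, edgeR). Dppa3 differed from the others in that library 2 was the lowest of the Notch1-/- group.

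The remaining members called higher were chosen for naming after their values were seen. Ddx4, the germ cell RNA helicase Vasa, had 40.5, 120.5 and 49.2 CPM in Notch1-/- cells and 20.4, 33.5 and 22.1 CPM in WT cells. Dazl, an RNA-binding protein of germ cells, had 26.9, 187 and 108 CPM in Notch1-/- cells and 7.27, 34.1 and 8.36 CPM in WT cells, so that WT library 2 exceeded Notch1-/- library 1. Tex19.1, which restrains retrotransposons, had 177, 543 and 333 CPM in Notch1-/- cells and 45.5, 174 and 65.9 CPM in WT cells. Slc25a31, a testis carrier of adenine nucleotides, and Stk31, a testis kinase with a Tudor domain, had log2 fold changes of 1.77 (SE 0.43) and 1.29 (SE 0.30), with adjusted p of 0.0229 and 0.0184 (edgeR). By the FPKM values Stk31 pointed the other way, at -0.33 on the log2(FPKM + 1) scale. The count of higher members was 3 without WT library 1, 4 without WT library 3 and 3 without Notch1-/- library 2, against 9 to 11 when another library was left out. It was 3 when only the 6 day 0 libraries were fitted.

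The members called lower, also singled out after their values were seen, were Zscan4c and Zscan4d, markers of the rare 2-cell-like state of stem cells, and Dmrt1, a regulator of testis development. Zscan4c had 0.109, 0.0615 and 0.642 CPM in Notch1-/- cells and 1.95, 3.58 and 1.86 CPM in WT cells (log2 fold change -3.19, SE 0.73, adjusted p = 0.0213, edgeR). Zscan4d was lower by 2.92 on the log2 scale with an adjusted p of 0.0217 (edgeR). Both lay in a run of 5 neighbouring Zscan4 loci called lower, at chr7:11379590-11896031 (mm9), while Zscan4f beyond its end was not called (-2.79, adjusted p = 0.080; 0.0457 with the replicate block, edgeR). These are near-identical copies that can share reads. Dmrt1 had 11.5, 21.9 and 12.9 CPM in Notch1-/- cells and 69.4, 26.4 and 42.8 CPM in WT cells (-1.58, SE 0.38), and at day 6 it was higher (1.25). The adjusted p of the Zscan4 genes reached 0.0963 without Notch1-/- library 2, and that of Dmrt1 reached 0.0952 without WT library 1 and was also above the threshold without Notch1-/- library 3.

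**Figure D2:**
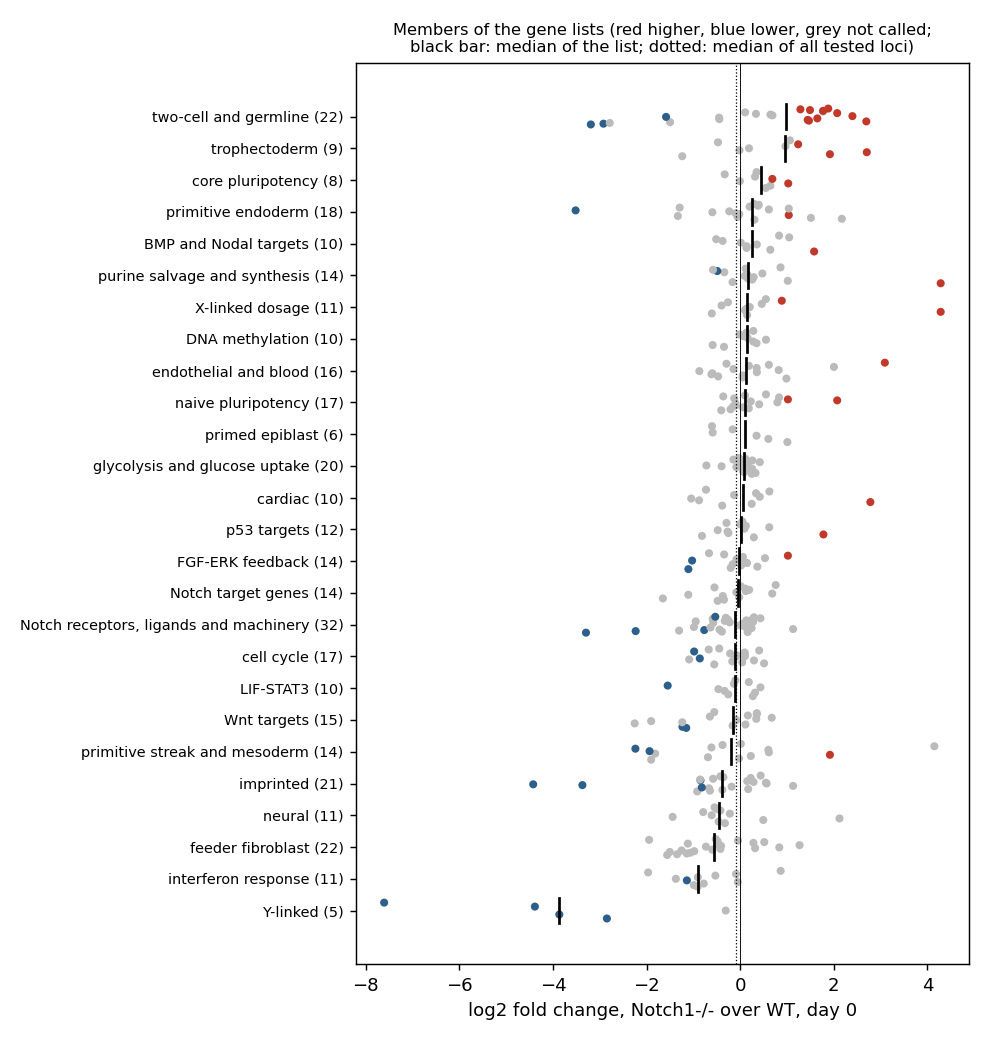
Log2 fold change of Notch1-/- over WT at day 0 for each tested member of the 26 gene lists, with the number tested in brackets; red members were called higher, blue lower and grey not called, and black bars are list medians. The 2-cell and germline list has 10 red and 3 blue points, the Y-linked list has a median of -3.86, and no feeder fibroblast, neural, primed epiblast, glycolysis, DNA methylation or Notch target gene was called in this fit, which has no replicate block.

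Genes of the pluripotent state held 4 calls, all higher, where 3.71% of all tested loci were higher and 5.86% lower. Of 17 tested naive pluripotency genes, Dppa3 and Fgf4 were higher and none was lower, with a median log2 fold change of 0.10. Fgf4, the growth factor that stem cells secrete, had 371, 510 and 302 CPM in Notch1-/- cells and 213, 212 and 158 CPM in WT cells (1.02, SE 0.22, adjusted p = 0.0134, edgeR). Of 15 listed core pluripotency genes, 8 were tested. Pou5f1 and Lin28a lay in loci merged with other genes and Sox2 and Utf1 were linked to no locus, so they were not tested. Of the 8 tested genes, Epcam and Dppa4 were higher and none was lower. A log2 fold change above 0 was seen for 6 of the 8, and their median was 0.45, beside -0.08 for all tested loci. Epcam, an adhesion molecule of stem cells and epithelia, had 299, 306 and 324 CPM in Notch1-/- cells and 178, 209 and 190.0 CPM in WT cells (0.69, SE 0.14, adjusted p = 0.00948, edgeR). Dppa4, a chromatin protein of stem cells, had a log2 fold change of 1.03 (SE 0.24, adjusted p = 0.0177, edgeR). Fgf4 lost its call without WT library 3 or Notch1-/- library 2 (adjusted p up to 0.0651), and Dppa4 without WT library 1, WT library 3 or Notch1-/- library 3 (up to 0.0688). Nanog, which has many near-identical pseudogene copies, stood at no more than 2.38 CPM in any day 0 library, and its level is uncertain. None of the 6 tested primed epiblast genes was called.

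Lists for differentiated lineages held between 0 and 3 calls each, where 9.56% of all tested loci were called. Of 18 tested primitive endoderm genes, Hnf4a was lower and Lama1, a basement membrane laminin, was higher (log2 fold change 1.04, SE 0.28, adjusted p = 0.0373, edgeR), a call lost without WT library 1, WT library 3 or Notch1-/- library 2 (adjusted p up to 0.171). Of 9 tested trophectoderm genes, 3 were higher. Tead4, a DNA-binding partner of YAP in the trophectoderm, had 148, 140.0 and 110.0 CPM in Notch1-/- cells and 51.9, 71.5 and 45.3 CPM in WT cells (1.24, SE 0.20, adjusted p = 0.00235, edgeR). Elf5 and Eomes, which specify the placental lineage, were called at levels of at most 0.823 and 0.114 CPM in Notch1-/- cells and 0.117 and 0.0341 CPM in WT cells. Of the Eomes locus, 78.8% of the exon length is shared with another locus, and by FPKM its difference did not pass the test (0.58 on the log2(FPKM + 1) scale, adjusted p = 0.387, limma). Both lost the call without WT library 1, WT library 3 or Notch1-/- library 3, Elf5 also without Notch1-/- library 1 and Eomes also without Notch1-/- library 2 (adjusted p up to 0.157, edgeR). No neural gene of 11 tested was called, and the cardiac list had 1 call of 10, Tbx20.

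Tbx20, a transcription factor of the heart, had 7.24, 11.1 and 15.2 CPM in Notch1-/- cells and 1.32, 2.12 and 1.44 CPM in WT cells, groups that lay well apart. Its log2 fold change was 2.78 (SE 0.48, adjusted p = 0.00344, edgeR) at day 0 and -3.56 at day 6. Of 14 tested primitive streak and mesoderm genes, Wnt8a and Wnt3, ligands of the early streak, were lower and Eomes was higher. Wnt8a had 1.51, 1.53 and 3.67 CPM in Notch1-/- cells and 11.9, 10.2 and 9.49 CPM in WT cells (-2.24, SE 0.38, adjusted p = 0.00301, edgeR), and at day 6 it was higher by 4.28. Wnt3 had 2.41, 0.352 and 1.63 CPM in Notch1-/- cells and 7.15, 5.40 and 4.21 CPM in WT cells (-1.94, SE 0.51, adjusted p = 0.0323, edgeR), up to 0.108 without WT library 1 or Notch1-/- library 3.

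The lists of signalling readouts, here and in the next paragraph, held between 1 and 3 calls each. Over all tested loci 9.56% were called, 3.71% higher and 5.86% lower. Pim1, a kinase induced by LIF through STAT3, was the only lower gene of 10 tested on the LIF-STAT3 list and none was higher. It had 153, 95.6 and 145 CPM in Notch1-/- cells and 474, 252 and 426 CPM in WT cells (log2 fold change -1.55, SE 0.25, adjusted p = 0.00251, edgeR), without overlap. Of 14 tested genes of FGF-ERK feedback, Fgf4 was higher and Etv5 and Spry1 were lower. Etv5, a transcription factor induced by ERK, had 306, 268 and 237 CPM in Notch1-/- cells and 442, 658 and 553 CPM in WT cells (-1.03, SE 0.17, adjusted p = 0.00261, edgeR). Spry1, a feedback inhibitor of the same pathway, had 18.6, 12.9 and 11.7 CPM in Notch1-/- cells and 27.8, 32.1 and 33.1 CPM in WT cells (-1.11, SE 0.21). The direction of Fgf4, the ligand, was thus the reverse of the direction of these 2 genes.

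Of 15 tested Wnt targets, Axin2 and Nkd1, both inhibitors of the pathway that feeds them, were lower by 1.15 and 1.23 on the log2 scale, with adjusted p of 0.0409 and 0.0465 (edgeR). Both calls were lost without WT library 1, Notch1-/- library 2 or Notch1-/- library 3, with adjusted p up to 0.156 for Axin2 and 0.208 for Nkd1. Of 10 tested BMP and Nodal targets, Id2, an inhibitor of basic helix-loop-helix factors, was higher, with 33.8, 83.4 and 99.6 CPM in Notch1-/- cells and 17.0, 35.3 and 20.2 CPM in WT cells. WT library 2 exceeded Notch1-/- library 1, and the call (1.58, SE 0.34, adjusted p = 0.0127, edgeR) was lost without WT library 1, WT library 3 or Notch1-/- library 2 (up to 0.0601). Of 12 tested p53 targets, Pmaip1, which encodes the apoptosis protein NOXA, was higher, with 329, 239 and 364 CPM in Notch1-/- cells and 82.1, 119 and 70.5 CPM in WT cells (1.78, SE 0.20, adjusted p = 0.000196, edgeR).

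Of 17 tested cell cycle genes, the G1 kinase gene Cdk6 and Cdkn1b, which encodes the inhibitor p27, were lower and none was higher. Among all tested loci 5.86% were lower and 3.71% higher. Cdk6 had 48.5, 44.9 and 45.5 CPM in Notch1-/- cells and 62.1, 98.3 and 92.0 CPM in WT cells (log2 fold change -0.86, SE 0.18, adjusted p = 0.00948, edgeR). Cdkn1b was called at the edge of the threshold (-0.98, adjusted p = 0.0492), its groups overlapped, and the adjusted p was up to 0.192 without WT library 1, WT library 3, Notch1-/- library 2 or Notch1-/- library 3 (edgeR). None of 20 tested genes of glycolysis and glucose uptake and none of 10 tested DNA methylation genes was called. Of the 11 tested interferon response genes, 1 was called, lower, and 10 had a log2 fold change below 0, with a median of -0.90. The mean log2(CPM + 0.1) of this list was 1.66, 2.80 and 3.21 in Notch1-/- cells and 3.18, 2.55 and 4.004 in WT cells. The 6 libraries stood in the same order as for the feeder fibroblast list described next, whose part in these values was not tested.

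With the replicate block, further members of these lists were called. The block called more loci throughout: 17.7% of all tested loci, 7.56% higher and 10.1% lower, against 9.56% without it. Ddx3x and Zfx on the X-linked list, Adss on the purine list, Asz1 on the germline list, Sall4 on the core pluripotency list, Sox7 on the primitive endoderm list, Bmp2 and Id3 on the BMP and Nodal list and Ddx58 on the interferon list were then higher. Zfp42 on the naive list, Mef2c and Ryr2 on the cardiac list, Bbc3 on the p53 list, Cdx1 on the Wnt list and Oasl2 on the interferon list were then lower. Their adjusted p was between 0.00681 and 0.046 with the block and between 0.0548 and 0.251 without it (edgeR).

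Genes of other cell types that the cultures could hold moved between libraries. None of the 22 tested feeder fibroblast genes was called, at a median log2 fold change of -0.56. With the replicate block the collagen genes Col1a1 and Col5a1 and the fibronectin gene Fn1 were called lower and Dcn higher, with adjusted p of 0.0229, 0.0282, 0.0415 and 0.0413 (edgeR). The block called 17.7% of all tested loci, 7.56% higher and 10.1% lower, so calls in this list were about as frequent as elsewhere. Col1a1, the fibroblast collagen, had 88.7, 168 and 257 CPM in Notch1-/- cells and 412, 219 and 883 CPM in WT cells (-1.56, SE 0.46, adjusted p = 0.0525, edgeR). The mean log2(CPM + 0.1) of the feeder list was 4.92, 6.10 and 6.68 in Notch1-/- cells and 6.29, 5.66 and 7.37 in WT cells, so Notch1-/- library 1 was the lowest of the 6 and WT library 2 came next. Within the fibroblast list, Dcn, a matrix proteoglycan, stood at 28.7, 59.4 and 101 CPM in Notch1-/- cells and at 13.8, 11.8 and 52.999 CPM in WT cells. With the feeder list mean as a covariate, 2023 loci were called, 1721 of them shared with the fit without it. Among the named genes this ended the calls of Dll1, Prps1, Sgce, Lama1, Elf5, Eomes and Laptm5, with adjusted p of up to 0.114 (edgeR), and Notch1 kept its call.

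Macrophage genes were examined after their values had been seen, because Mmp12 and Cd36 were among the greatest increases. Of 21 listed genes 10 were tested, Mmp12 and Cd36 among them, and 8 were called higher and none lower. Over all tested loci 3.71% were higher and 5.86% lower. The median log2 fold change was 3.00, beside -0.08 for all tested loci. The list was prompted by its own members, and genes low in WT cells can pass the count filter through the Notch1-/- libraries. The count and the median thus describe these members only. Mmp12, a macrophage metalloprotease, had 0.694, 33.8 and 36.4 CPM in Notch1-/- cells and 0.0439, 0.102 and 0.397 CPM in WT cells (7.04, SE 1.29, adjusted p = 0.00496, edgeR). Cd36, a scavenger receptor, had 0.0992, 5.56 and 6.15 CPM in Notch1-/- cells and 0.0585, 0.0682 and 0.0759 CPM in WT cells. Notch1-/- libraries 2 and 3 carried the signal of both genes, and Notch1-/- library 1 lay near the WT libraries.

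The same libraries were highest for the Fc receptor Fcgr3, with 1.00, 4.06 and 3.29 CPM in Notch1-/- cells and 0.132, 0.273 and 0.118 CPM in WT cells. Cybb, the phagocyte oxidase subunit, had 0.327, 4.10 and 5.003 CPM in Notch1-/- cells and 0.0878, 0.298 and 0.245 CPM in WT cells. The macrophage receptor gene Csf1r was called with the replicate block (adjusted p = 0.0375, edgeR) and not without it (0.0547), with 0.476, 2.87 and 3.63 CPM in Notch1-/- cells and 0.410, 0.597 and 0.397 CPM in WT cells. Ptprc, the leukocyte antigen CD45 and the only call among 16 tested endothelial and blood genes, had 0.317, 1.21 and 1.87 CPM in Notch1-/- cells and 0.0439, 0.222 and 0.135 CPM in WT cells, and Spi1, the transcription factor PU.1, rose by 1.80 on the log2 scale (SE 0.36). Ms4a6d differed from these, with 2.20, 2.55 and 3.38 CPM in Notch1-/- cells and 0.176, 0.349 and 0.557 CPM in WT cells, and Laptm5 was high in all libraries, at 196, 261 and 122 CPM in Notch1-/- cells and 109, 81.5 and 89.8 CPM in WT cells. Tyrobp, a macrophage adaptor under the filter of the count table, was listed at 0, 1.06 and 1.01 FPKM in Notch1-/- cells and at no more than 0.0277 FPKM in WT cells.

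A run of 3 neighbouring loci called higher, at chr15:78075241-78184277 in mm9, held Ncf4, Csf2rb2 and Csf2rb, which encode a subunit of the phagocyte oxidase and receptor chains for blood cytokines. Csf2rb had 0.0793, 3.01 and 2.87 CPM in Notch1-/- cells and 0.0366, 0.00852 and 0.101 CPM in WT cells, the same pattern of libraries. The mean log2(CPM + 0.1) over the 10 tested macrophage genes was 0.289, 2.45 and 2.48 in Notch1-/- cells and -1.05, -0.54 and -0.45 in WT cells. Summed over the list the level was 203, 318 and 185 CPM in Notch1-/- cells and 111, 84.9 and 94.3 CPM in WT cells, of which Laptm5 alone made up 196, 261 and 122 CPM in Notch1-/- cells and 109, 81.5 and 89.8 CPM in WT cells. The count of higher members was 9 without Notch1-/- library 1, 6 without WT library 1, WT library 3 or Notch1-/- library 2, 8 without WT library 2 and 7 without Notch1-/- library 3. Without single libraries the adjusted p of Ptprc reached 0.0684, that of Laptm5 0.162, that of Csf2rb 0.129 and that of Ncf4 0.118 (edgeR). The part of such cells in the other calls was not tested. The mean log2(CPM + 0.1) of the germline list was 2.275, 3.12 and 3.17 in Notch1-/- cells and 2.25, 2.84 and 2.29 in WT cells, with Notch1-/- library 1 the lowest of its group as for the macrophage list. The summed level of the germline list was 465, 1312 and 847 CPM in Notch1-/- cells and 263, 436 and 256 CPM in WT cells, with library 2 highest in both genotypes. Whether the 2 lists have a source in common was not tested.

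**Figure D3:**
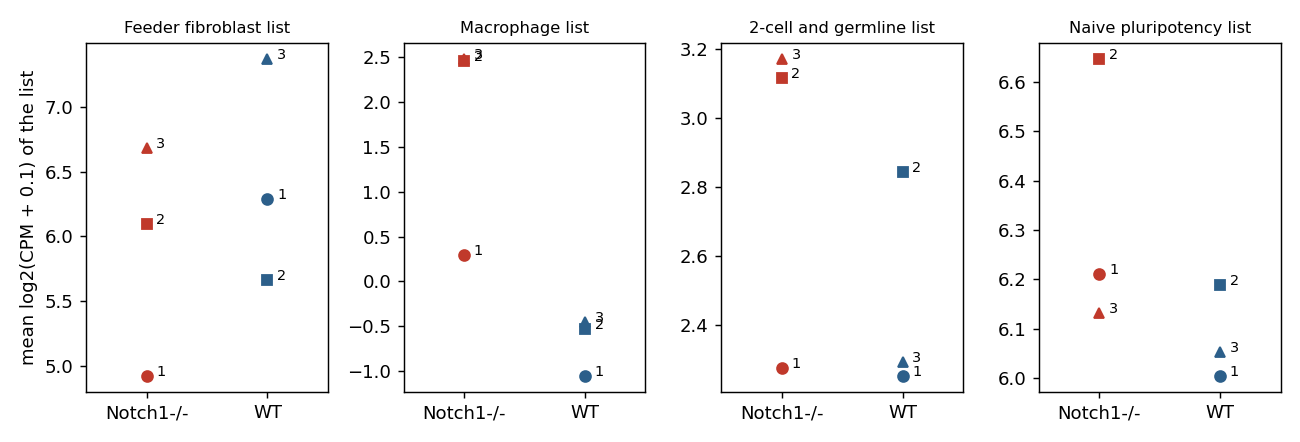
Mean log2(CPM + 0.1) over the tested members of 4 gene lists in each day 0 library, Notch1-/- left of WT, with library numbers beside the points and a separate vertical axis for each list. Notch1-/- library 1 is lowest for the feeder list (4.92) and lies below Notch1-/- libraries 2 and 3 for the macrophage list (0.289 against 2.45 and 2.48).

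The day 6 libraries give the genotype difference in other samples, though these come from the same cell lines and entered the same fit, so the day 0 calls rest on their spread too. At day 6, 28.1% of the tested loci were called, 13.7% higher and 14.4% lower. Of the 889 loci higher at day 0, 492 (55.3%) were also higher at day 6, 33 were lower and 364 were not called. Of the 1405 loci lower at day 0, 544 (38.7%) were also lower at day 6, 132 were higher and 729 were not called. The 1036 loci called in the same direction numbered 641 without Notch1-/- library 2 and 2067 without WT library 2. The sign was the same on both days for 85.4% of the higher and 72.7% of the lower loci, beside 60.3% of all tested loci. Across all tested loci, which are not independent, the genotype changes of the 2 days had a Pearson r of 0.43.

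Hprt, Klhdc4, Hrnr, Crisp1, Zp3r and Ankrd31 among the higher genes and Notch1, Pla2g4e, Mirg, Rtl1, Uty, Eif2s3y and Epha4 among the lower ones were called the same way on both days. Klhdc4 had a log2 fold change of 8.29 at day 6, Mirg of -8.76 and Uty of -11.07. The difference between the 2 days was itself called at 2708 loci (11.3%), of which 149 were higher and 403 lower at day 0. Wnt8a, Dll1, Dmrt1 and Prps1 were lower at day 0 and higher at day 6, and Tbx20, Id2, Lama1 and Pkhd1l1 were higher at day 0 and lower at day 6.

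**Figure D4:**
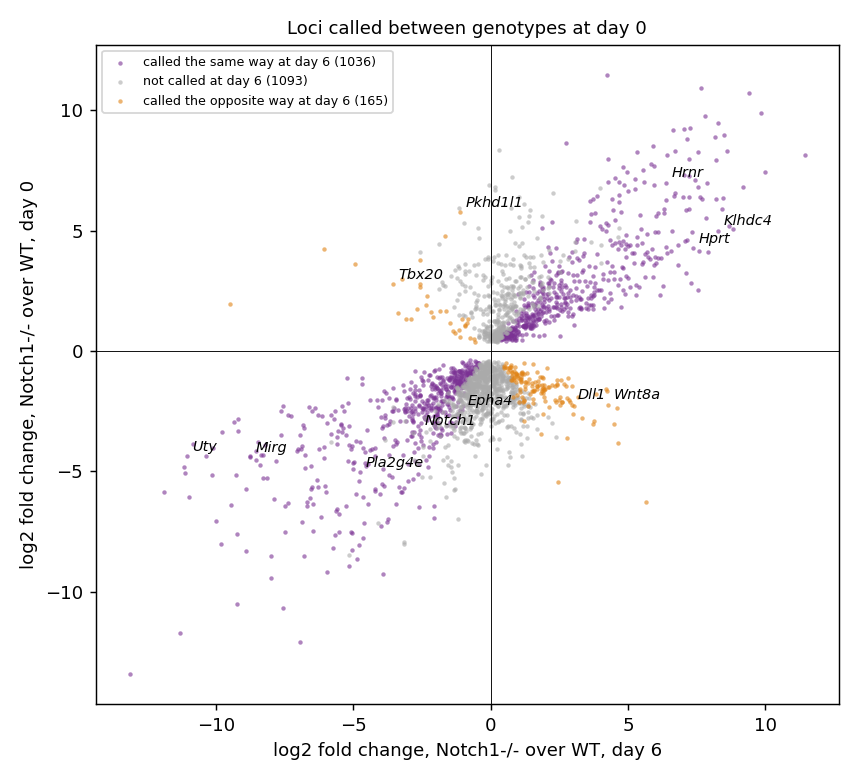
Log2 fold change of Notch1-/- over WT at day 6 (horizontal) and at day 0 (vertical) for the 2294 loci called at day 0. Purple points (1036) were called the same way at day 6, grey points (1093) were not called and orange points (165) were called the opposite way; a locus with no count in one group is drawn at its fitted value, which is no bound.

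By the class that the deposited models give, 320 of 7291 tested intergenic loci were higher and 525 lower (11.6% called), beside 546 and 825 of 15943 loci that match reference genes (8.60%) and 23 and 55 of 757 antisense loci (10.3%). Intergenic locus XLOC_009067 at chr13:19608914-19620273 (mm9) had 0.00992, 0.00879 and 0 CPM in Notch1-/- cells and 46.1, 78.6 and 122 CPM in WT cells. XLOC_026036 at chr4:15276043-15288379 had no count in Notch1-/- cells and 3.06, 4.94 and 6.00 CPM in WT cells, at least 489-fold lower with the floor of 3 counts over the group. XLOC_031934 at chr7:86619022-86622550 had at most 0.00992 CPM in Notch1-/- cells and 1.75, 2.41 and 4.80 CPM in WT cells.

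In the other direction, XLOC_001963 at chr1:123107040-123109121 had 1.36, 0.879 and 4.02 CPM in Notch1-/- cells and no count in WT cells, at least 259-fold higher with the same floor. XLOC_009879 at chr13:61897250-61903769 had 8.77, 5.12 and 4.88 CPM in Notch1-/- cells and at most 0.0338 CPM in WT cells. XLOC_023909 at chr3:93146008-93158622, near Hrnr, had 5.81, 5.45 and 12.4 CPM in Notch1-/- cells and at most 0.0767 CPM in WT cells. No gene name is given to these loci by the tables used. All 6 intergenic loci were called in the same direction at day 6. Named noncoding genes with the greatest change were Mir142hg, the host gene of a blood cell microRNA, Ptprtos and Snhg6, all higher, and Mirg, Eldr and Lockd, all lower. Mir142hg had 4.62, 7.34 and 6.57 CPM in Notch1-/- cells and 0.227, 0.435 and 0.321 CPM in WT cells (log2 fold change 4.24, SE 0.41, adjusted p = 5.32e-05, edgeR). Unlike Mmp12 and Cd36, it was high in Notch1-/- library 1 too. Ptprtos (2.61, SE 0.42), Snhg6 (1.16, SE 0.20), Eldr (-1.74, SE 0.26) and Lockd (-1.64, SE 0.34) had adjusted p of at most 0.0107 (edgeR), and Lockd lost its call without Notch1-/- library 2 (adjusted p = 0.05005, edgeR).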

How the data were processed

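Per the labels' protocols, Trizol RNA was selected for poly(A) and read on a HiSeq2000 in pairs of 100 bases. Tools named in the submitters' processing notes are HTSeq 0.5.4p3, TopHat2 2.0.8, DESeq and Cufflinks 2.1.1, with build mm9. The strand setting of the counting is not given in the sources used here, so sense and antisense reads cannot be told apart. The authors deposited whole-number counts for merged loci. Their FPKM table, scaled by the authors to transcript length and library size, and the transcript models cover the same loci.

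Of 40039 loci, 17111 were linked to 1 gene of GENCODE vM21 by the lengths of their exons and introns, and no coordinates were converted. In the same search on another chromosome the 3 linking rules gave 61, 0 and 43 false links, against 15882, 609 and 620 links. Reads that touch several loci appear to be left out of the deposited counts, so loci that share exons are uncertain.

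The counts of all 12 libraries were fitted with edgeR 4.0.16 (R 4.3.3): TMM scaling, the default filter (23991 loci), 1 mean per group, quasi-likelihood tests and Benjamini-Hochberg adjustment. The script was tested on simulated data. At this depth the spread between libraries exceeds counting error (chi-square per degree of freedom between day 0 replicates 103.8 to 345.1). The titles number the replicates, but the labels do not say that equal numbers belong together. Deviations from the group means correlated at 0.413, 0.294 and 0.202 in the same-numbered pairs and at -0.296 to 0.119 in the others. Deviations from means of 3 libraries are tied to each other, so these values cannot establish a pairing. Calls made only with the replicate number as a block depend on it. Fits with that replicate block, DESeq2 1.42.0, limma 3.58.1 on log2(FPKM + 1) and log2(FPKM + 0.1), other scalings, no filter, a feeder covariate and single libraries left out were alternatives.

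Genes were named by a rule: Notch1, the 12 greatest changes per direction (groups not overlapping, mean CPM of at least 2, under 50% shared exons), the 8 per direction with the smallest p on both days, list members with the smallest p, and 3 noncoding and 3 intergenic loci per direction. Those named outside it were chosen after their values were seen: Stk31, Ddx4, Dazl, Slc25a31, Tex19.1, Dmrt1, Zscan4c, Zscan4d, Rptn, Zscan4f, the macrophage genes and the list members called with the replicate block and not without it. The members and lists were chosen with earlier results of these data known. Promoters were taken from RefSeq. Some results are not reported here.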

Additional observations from a re-analysis of the deposited data

Results flagged for a closer look

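The genotype difference of the genes given here differed between the 2 days by edgeR's quasi-likelihood test of that difference (Benjamini-Hochberg adjusted p under 0.05), which holds for 11.3% of all tested loci. Each value is the log2 fold change of Notch1-/- over WT at day 0 minus that at day 6.

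The direction changed between days for 4 genes lower at day 0 and called higher at day 6: the difference was -6.52 for Wnt8a, -5.20 for Dll1, -2.83 for Dmrt1 and -1.72 for Prps1. The reverse was seen for Pkhd1l1 at 6.86, Tbx20 at 6.34, Id2 at 4.94 and Lama1 at 1.99 (1.985 unrounded). Wnt3 differed by -3.13, Pim1 by -1.74, Etv5 by -1.49, Cdk6 by -1.26, Lockd by -1.99 (-1.986 unrounded) and Jag1 by -1.08, all lower at day 0 and not called at day 6.

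Several genes were called higher at day 0 and not called at day 6. The difference was 6.29 (6.285 unrounded) for Csf2rb, 3.72 for Fcgr3, 3.62 for Elf5, 1.93 for Sycp1, 1.54 for Dppa3 and 1.29 for Tead4. Genes called at day 0 with the replicate block and not without it also differed between days in the fit without it, by -1.53 (-1.533 unrounded) for Jag2, -4.97 for Cdx1, 5.48 for Sox7, 3.47 for Bmp2, 2.00 (1.998 unrounded) for Id3 and 2.13 for Mef2c. Csf1r differed by 3.98 between days. Without the replicate block it was called on neither day, and with the block it was called at day 0.

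Others kept their direction and differed in size. Larger at day 6 were the decreases of Eif2s3y (difference 6.99), Uty (6.68), Rtl1 (6.42), Ddx3y (6.35), Mirg (4.34), Col1a1 (3.13, not called at day 0 without the replicate block) and Sgce (1.93, or 1.925 unrounded), and the increases of Klhdc4 (-3.28), Hprt (-3.10), Ankrd31 (-2.41), Crisp1 (-2.38) and Pmaip1 (-1.52). Larger at day 0 were the increase of Filip1 (3.16) and the decreases of Epha4 (-1.44) and Sned1 (-1.40). Feeder fibroblast genes were at a lower level at day 6 in both genotypes, and their part in these differences was not tested. Groups of 3 libraries are too small to test for outlying values.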

How the results depend on the processing

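The fold change of Notch1 kept its direction and its call in all alternatives, between -2.07 on the log2(FPKM + 1) scale and -3.55. The number of called loci depended on the libraries: leaving out 1 day 0 library gave 1087 to 5735 called loci, 524 to 2425 higher and 549 to 3310 lower, 641 to 2067 called the same way at day 6 and 2053 to 3919 with a difference between days. With the replicate block 4241 were called (1813 higher, 2428 lower, 1832 shared with day 6); of the named genes it ended the call of Ncf4 (adjusted p = 0.0621, edgeR), and it added the calls given in the text, Notch3 among them. DESeq2's Wald test called 3714 (1594 higher, 2120 lower), with 4099 differing between days. The 6 day 0 libraries alone gave 743 (373 higher, 370 lower) and ended 35 of the 87 calls among named genes. On the log2(FPKM + 1) scale 928 were lower and 498 shared with day 6. With the feeder covariate 509 were shared with day 6 and 1700 differed between days. Higher loci were 38.8% of the calls, 43.2% with DESeq2's size factors.

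Of the named genes, these reversed: Notch2 by FPKM (-0.0056 and -0.0099), Stk31 by FPKM (-0.33 and -1.23), Kdm5d without WT library 3 or Notch1-/- library 1 (range over single libraries left out -0.8125 to 0.0741) and with the feeder covariate (0.0635), and Nanog without WT library 3 (range -0.3423 to 0.2874), by FPKM (0.1367 and 0.1372) and with the feeder covariate (0.0666). The cause was not tested. Of 87 named genes called, 42 were called under every alternative. At this depth counting error was small beside the spread between libraries.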
